A study of Mus musculus with 3 samples.

Results

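A set of 40 genes of the cell division cycle was followed in epithelium from 3 stretches of mouse intestine, as the rows of the deposited tables whose gene symbol was on a list of DNA replication and mitosis genes. All 40 symbols were found among the 24346 genes in the files. By role, 18 act in DNA replication, 17 in mitosis or its preparation, and 5 are the D and E cyclins and Cdk2, which govern entry into S phase. RNA was sequenced from cells that EDTA had released from the large intestine, the upper small intestine and the lower small intestine, called large, upper and lower below, with 1 library for each and no sort described. The labels give no genotype, age or number of animals, and do not explain the prefix SPFm in the library names. Upper alone has a strain background label, which names the CRC mouse model MC38, and taken at its word it makes strain inseparable from region wherever upper is compared. The study's title concerns the enzyme E-NTPD8 in colonic inflammation.

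Intestinal epithelium is renewed throughout life. Stem cells at the base of the crypts and the transit-amplifying cells above them divide, and their progeny stop dividing as they move to the villus or to the colonic surface. Replication genes are switched on by E2F factors as cells enter S phase, and mitosis genes later by complexes that hold MYBL2 and FOXM1. In resting cells the DREAM complex keeps both groups low, through E2F sites and through the cell cycle genes homology region, or CHR.

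Promoters are shown first, because replication and mitosis genes are known to be read through different motifs. RefSeq (GRCm38.p6) held a promoter for 31 of the 40 members. The 250 bases before the start of each were searched on both strands. An E2F octamer was any of TTTCCCGC, TTTGGCGC, TTTCGCGC and TTTGCCGC, the CHR was TTTGAA, and the CCAAT box, bound by NF-Y, was CCAAT. An E2F octamer lay in 4 of 16 replication promoters (Mcm5, Mcm6, Mcm7 and Cdc6) and in 1 of 13 mitosis promoters (Cdk1), against 1.91% of all 27025 promoters. The bases searched for Cdc6 and Mcm7 lie inside those genes as annotated in GENCODE M21, past the outermost start. The CHR lay in 3 of 16 replication and 7 of 13 mitosis promoters, against 16.3% of all. A CCAAT box lay in 10 of 16 replication and 12 of 13 mitosis promoters, against 34.5% of all. Both CHR and CCAAT box stood in 2 replication and 7 mitosis promoters, against 5.73% of all. Among 9503 promoters of genes at 1 FPKM or more in any library, the shares were 3.36% for an E2F octamer, 10.5% for the CHR and 36.5% for a CCAAT box. A match describes letters and is not a bound site.

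The 200 bases before the start are printed for 2 replication genes with E2F octamers, for 3 mitosis genes with both CHR and CCAAT box, and for Plk1, the mitosis gene whose levels differ from the rest. Capitals mark every match. Mcm5 (chr8:75109309-75109508, plus strand) and Mcm6 (chr1:128359706-128359905, minus strand) each hold 2 octamers on opposite strands that overlap, and Mcm6 holds a further one nearer the start. Cdk1 (chr10:69352913-69353112, minus strand) holds 1 E2F octamer, 2 CHR matches and 2 CCAAT boxes. Top2a (chr11:99024190-99024389, minus strand) holds 2 CHR matches and 5 CCAAT boxes. Cdc20 (chr4:118437344-118437543, minus strand) holds 1 CHR match between 2 CCAAT boxes. Plk1 (chr7:122159235-122159434, plus strand) holds 1 CCAAT box, and the letters TTTGAA are not in this window. Those letters were not found for Birc5, Aurka, Bub1, Bub1b and Ccnb1 either, so their absence does not set Plk1 apart. Other forms of the CHR and bases after the start were not searched, so a CHR was not shown to be absent from any of these genes.
Mcm5: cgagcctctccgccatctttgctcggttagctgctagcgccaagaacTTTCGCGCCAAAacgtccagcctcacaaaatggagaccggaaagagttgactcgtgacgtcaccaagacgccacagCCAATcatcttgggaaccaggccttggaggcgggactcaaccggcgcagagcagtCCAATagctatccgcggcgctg
Mcm6: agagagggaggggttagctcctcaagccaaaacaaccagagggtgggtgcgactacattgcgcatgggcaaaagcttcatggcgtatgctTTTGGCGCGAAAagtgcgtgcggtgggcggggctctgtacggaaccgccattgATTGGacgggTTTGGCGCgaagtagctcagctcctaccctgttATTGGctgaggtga
Cdk1: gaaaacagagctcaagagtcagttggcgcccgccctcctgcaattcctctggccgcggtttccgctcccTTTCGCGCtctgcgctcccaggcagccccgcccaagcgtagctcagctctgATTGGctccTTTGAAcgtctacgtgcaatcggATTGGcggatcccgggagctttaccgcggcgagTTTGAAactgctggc
Top2a: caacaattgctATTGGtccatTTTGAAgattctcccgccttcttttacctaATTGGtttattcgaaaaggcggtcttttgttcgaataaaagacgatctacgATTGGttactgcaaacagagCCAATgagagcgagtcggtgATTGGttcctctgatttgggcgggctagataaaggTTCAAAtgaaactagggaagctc
Cdc20: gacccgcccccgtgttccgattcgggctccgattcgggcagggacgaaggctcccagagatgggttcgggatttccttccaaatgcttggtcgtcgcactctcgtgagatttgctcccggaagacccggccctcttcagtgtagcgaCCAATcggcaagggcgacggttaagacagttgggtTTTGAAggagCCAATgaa
Plk1: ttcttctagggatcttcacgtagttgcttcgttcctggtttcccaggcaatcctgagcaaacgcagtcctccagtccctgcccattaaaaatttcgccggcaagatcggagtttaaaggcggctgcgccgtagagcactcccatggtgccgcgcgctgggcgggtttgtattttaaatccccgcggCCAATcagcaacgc

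Levels are in FPKM, fragments per kilobase of transcript scaled to library size, so genes can be compared within a library. Differences are of log2(FPKM + 1), the first named region minus the second. With 1 library a region there is no test and no SD. A gene was called lower or higher by size alone, at a difference of 1 or more. Brackets after a ratio are 95% Clopper-Pearson intervals from the reads that the FPKM imply, and cover counting error only, not differences between animals or preparations. In bulk RNA, fewer dividing cells and less RNA in each cannot be told apart. Scaled to its own total, large would hold about 8.44, upper 7.30 and lower 10.9 in units of 1e6 reads.

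Replication genes were lower in large than in upper and in lower, all 18 of them and under each of the rescalings tried. Against upper 16 of 18 were called lower, where 11.7% of all measured genes were, and against lower 15 of 18, where 10.5% were. None was called higher. The median difference was -1.31 against upper and -1.38 against lower, and the median ratio of FPKM 0.373 and 0.361. Both counting intervals lay below 1 for each of the 18. All 40 members reached 1 FPKM in at least 1 of the 2 libraries of each comparison, Cdc6 only through the small intestine.

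**Figure D1:**
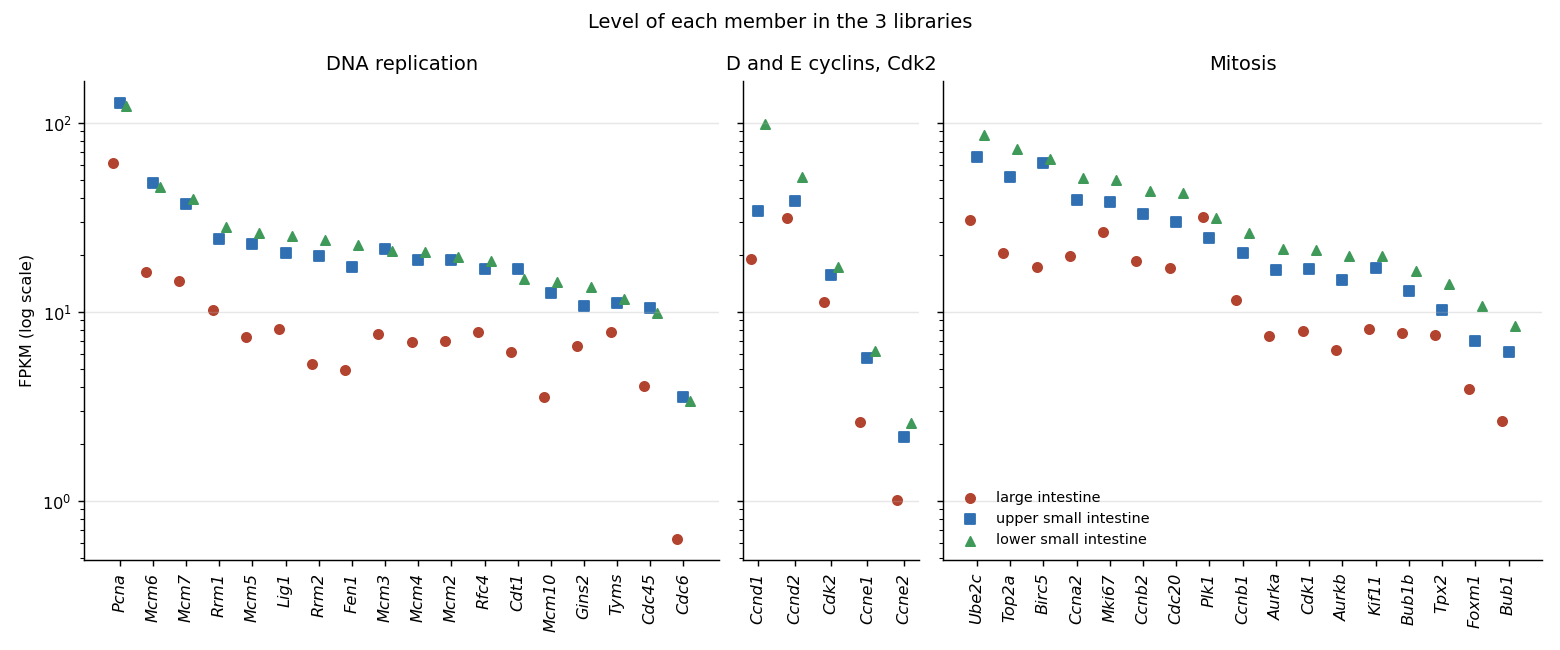
FPKM (log axis) of each member in large (circles), upper (squares) and lower (triangles), 1 point per library, with genes ordered by their level in lower. The circle is the lowest point for every gene but Plk1, and Ccnd1 separates upper from lower most, at 34.3 and 99.1 FPKM.

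The replicative helicase is a ring of the subunits Mcm2 to Mcm7, loaded onto origins before S phase. Mcm2 stood at 7.03 FPKM in large, 18.8 in upper and 19.4 in lower. Mcm3 stood at 7.65 FPKM in large, 21.5 in upper and 20.9 in lower. Mcm4 stood at 6.93 FPKM in large, 18.7 in upper and 20.7 in lower. In these 3 subunits large lay far below 2 values close to each other. Mcm5 was at 7.37 FPKM in large, 22.9 in upper and 26.2 in lower. Mcm6 was at 16.2 FPKM in large, 48.0 in upper and 46.0 in lower. Mcm7 was at 14.6 FPKM in large, 37.3 in upper and 39.4 in lower. Mcm6 was the highest subunit in each library, at 2.34 times the lowest in large, 2.57 times in upper and 2.37 times in lower. The ratio of large to lower ran from 0.281 (0.236 to 0.334) for Mcm5 to 0.371 (0.309 to 0.440) for Mcm7, and that of large to upper from 0.322 (0.267 to 0.387) to 0.391 (0.323 to 0.470) for the same genes. Mcm7 shares 7.25% of its exonic bases with Ap4m1 on the other strand, and nothing used here states whether counting took account of strand.

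Genes that load and start the helicase were lower in large by unequal amounts. Cdc6, which helps load the ring, was the lowest replication member, at 0.630 FPKM in large, 3.56 in upper and 3.38 in lower. Its ratios of 0.177 (0.0952 to 0.330) to upper and 0.187 (0.101 to 0.338) to lower were the smallest of any member, with wide intervals from few reads. Cdt1, its loading partner, was at 6.10 FPKM in large, 16.8 in upper and 14.9 in lower. Relative to its inhibitor geminin (Gmnn), Cdt1 stood at 0.267 in large, 0.416 in upper and 0.493 in lower. Cdc45, part of the active helicase, was at 4.06 FPKM in large, 10.5 in upper and 9.81 in lower. Mcm10, which helps start the fork, was at 3.55 FPKM in large, 12.5 in upper and 14.4 in lower. Both were called lower in large in both comparisons. Gins2, of the complex that joins Cdc45 to the ring, was at 6.57 FPKM in large, 10.7 in upper and 13.5 in lower and was called in neither. It shares 67.3% of its exonic bases with Gse1 on the opposite strand, which was at 19.1 FPKM in large, 13.9 in upper and 14.99 in lower.

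Genes of the moving fork differed by unequal amounts. Pcna, the sliding clamp, had the highest level of any member in each library, at 61.1 FPKM in large, 128 in upper and 123 in lower. It lay at the edge of the rule of size, called lower against upper (-1.05) and just outside it against lower (-0.99), where Bub1b was just inside (-1.01). Rfc4, a subunit of the clamp loader, was at 7.79 FPKM in large, 16.9 in upper and 18.6 in lower. It shares 12.7% of its exonic bases with Eif4a2 on the opposite strand, which was at 188 FPKM in large, 129 in upper and 125 in lower. Fen1, the nuclease that trims lagging-strand fragments, was at 4.92 FPKM in large, 17.3 in upper and 22.4 in lower. Lig1, the ligase that joins them, was at 8.12 FPKM in large, 20.5 in upper and 25.1 in lower. Fen1 had one of the smaller ratios of large to lower, 0.219 (0.172 to 0.275), and 78.8% of its exonic bases lie opposite an antisense gene.

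In nucleotide supply, both subunits of ribonucleotide reductase were called lower in large. Rrm1, the large subunit, was at 10.2 FPKM in large, 24.3 in upper and 28.2 in lower. Rrm2, the cell cycle-regulated small subunit, was at 5.31 FPKM in large, 19.8 in upper and 24.0 in lower. Rrm2 stood at 0.523 of Rrm1 in large, against 0.814 in upper and 0.852 in lower. Tyms, thymidylate synthase, differed least of the replication members, at 7.83 FPKM in large, 11.1 in upper and 11.6 in lower. Its ratios of 0.705 (0.585 to 0.851) to upper and 0.674 (0.567 to 0.798) to lower lay below 1 by more than counting error but inside the rule of size. GENCODE M21 names pseudogene copies of Tyms, Pcna, Ccnb1 and Ccnb2, so the levels of these genes are uncertain by reads that counting could split.

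**Figure D2:**
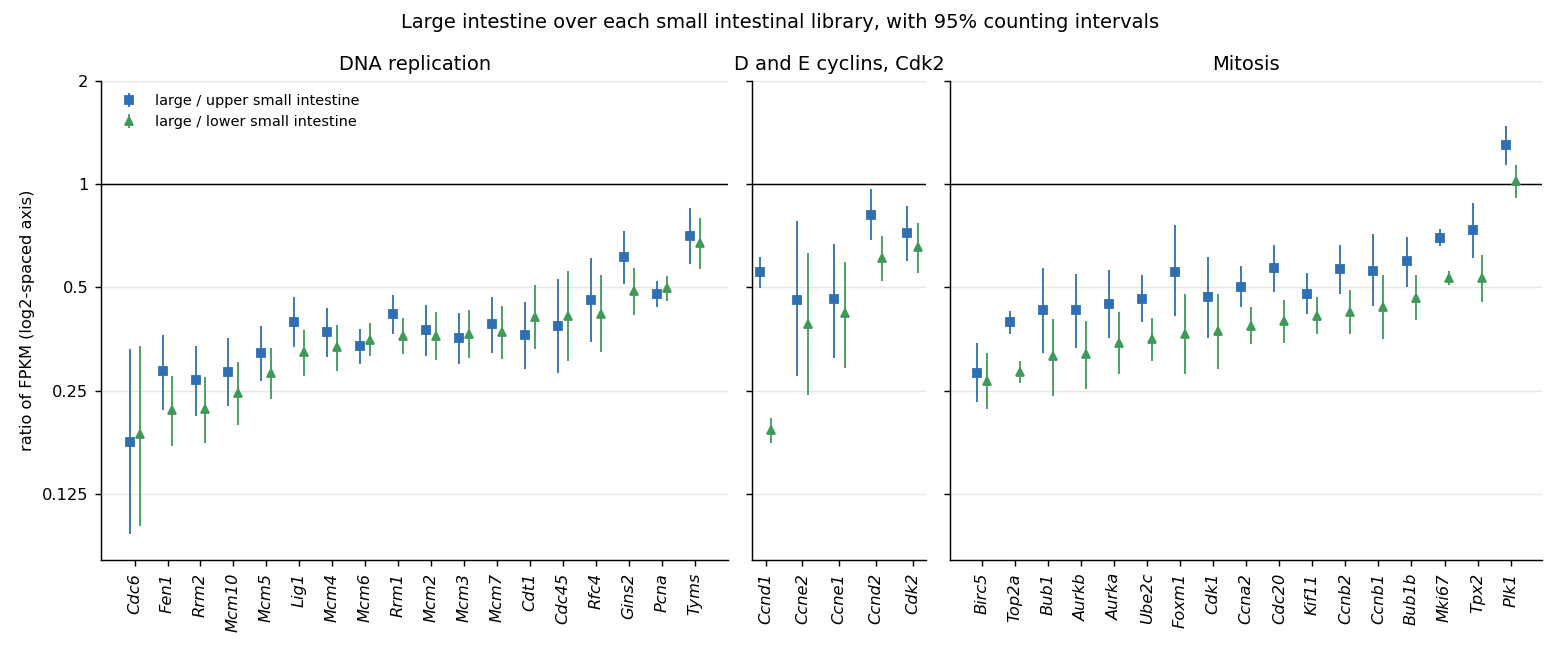
Ratio of FPKM in large to upper (squares) and to lower (triangles) on a log2-spaced axis, with bars for 95% counting intervals from implied reads. Ratios lie below 1 except those of Plk1, at 1.30 to upper and 1.02 to lower, and each mitosis gene has a smaller ratio to lower than to upper.

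Mitosis genes were lower in large as well, except Plk1. Against upper 6 of 17 were called lower, where 11.7% of all measured genes were, and against lower 14 of 17, where 10.5% were. None was called higher, where 11.2% of all measured genes were against upper and 9.75% against lower. Median differences were -0.96 against upper and -1.28 against lower, and median ratios 0.503 and 0.387. Several genes lay near the rule against upper, with Cdk1 just inside (-1.01) and Kif11 just outside (-0.97). The count of 6 became 3 with libraries rescaled to the same upper quartile, 1 at the same FPKM sum and 12 at the same level of epithelial markers. Of all measured genes, 10.5%, 8.01% and 15.4% were then called lower, in that order. At the same FPKM sum the mitosis count thus did not exceed the share of all genes. Counting intervals lay below 1 for 16 of 17 genes in each comparison.

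Common markers of proliferation gave differences of unequal size. Mki67, the Ki-67 antigen of dividing cells, was at 26.5 FPKM in large, 37.9 in upper and 49.7 in lower. Its ratios of 0.698 (0.660 to 0.738) to upper and 0.533 (0.507 to 0.560) to lower were among the mildest of the mitosis genes, and it was called in neither comparison. Top2a, the topoisomerase that untangles sister chromatids, was at 20.5 FPKM in large, 51.8 in upper and 72.4 in lower, with ratios of 0.395 (0.365 to 0.428) to upper and 0.283 (0.263 to 0.304) to lower. Foxm1, a transcription factor of mitosis genes, was at 3.91 FPKM in large, 7.03 in upper and 10.7 in lower and was called lower against lower only.

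The kinase of mitotic entry and its cyclins were lower together. Cdk1 was at 7.93 FPKM in large, 16.9 in upper and 21.3 in lower. It stood at 0.703 of Cdk2 in large, against 1.08 in upper and 1.24 in lower. Ccna2, cyclin A2, was at 19.6 FPKM in large, 39.0 in upper and 50.8 in lower. It shares 12.5% of its exonic bases with Exosc9 on the opposite strand, which was at 16.0 FPKM in large, 20.3 in upper and 20.7 in lower. Ccnb1, cyclin B1, was at 11.5 FPKM in large, 20.5 in upper and 26.2 in lower. Ccnb2, cyclin B2, was at 18.5 FPKM in large, 32.8 in upper and 43.5 in lower. The B cyclins kept nearly the same proportion, with Ccnb2 at 1.61 times Ccnb1 in large, 1.60 in upper and 1.66 in lower. All 3 cyclins were called lower in large against lower and not against upper.

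Among mitotic kinases and spindle genes, Birc5 and Plk1 marked the 2 ends. Birc5, survivin, which guides Aurora B to chromosomes, was at 17.2 FPKM in large, 61.1 in upper and 64.5 in lower. Its ratios were 0.282 (0.232 to 0.344) to upper and 0.267 (0.221 to 0.322) to lower. Aurkb, Aurora B itself, was at 6.30 FPKM in large, 14.6 in upper and 19.7 in lower. Aurka, Aurora A of the spindle poles, was at 7.43 FPKM in large, 16.7 in upper and 21.5 in lower. Both Aurora genes were called lower in large in both comparisons. Tpx2, which activates Aurora A, was at 7.50 FPKM in large, 10.2 in upper and 14.1 in lower and was called in neither. Kif11, the motor that separates spindle poles, was at 8.13 FPKM in large, 17.0 in upper and 19.6 in lower, called lower against lower only.

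Plk1, Polo-like kinase 1, which acts from mitotic entry to cytokinesis, was at 31.9 FPKM in large, 24.5 in upper and 31.2 in lower. It was the one member whose level in large was not the lowest of the 3. Its ratio to upper was 1.30 (1.14 to 1.48), above counting error but inside the rule of size. Its ratio to lower was 1.02 (0.914 to 1.14), so a difference was not detectable at this depth. Relative to Mki67, Plk1 stood at 1.20 in large, against 0.647 in upper and 0.628 in lower. The gene spans bases 122159439 to 122169873 of chromosome 7 in mm10, and 7.09% of its exonic bases lie opposite another annotated transcript.

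Checkpoint and anaphase genes completed the group. Bub1, a kinase of the spindle checkpoint, was at 2.64 FPKM in large, 6.14 in upper and 8.37 in lower. Bub1b, its relative BubR1, was at 7.69 FPKM in large, 12.9 in upper and 16.5 in lower. Both were called lower in large against lower only. Cdc20, which activates the anaphase-promoting complex, was at 17.0 FPKM in large, 29.9 in upper and 42.6 in lower. Ube2c, the ubiquitin-conjugating enzyme of that complex, was at 30.6 FPKM in large, 66.0 in upper and 86.7 in lower. Ube2c was called lower in both comparisons and Cdc20 against lower only.

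Upper was then set against lower. No replication or mitosis gene was called in either direction, where 2.92% of all measured genes were called lower and 3.92% higher in upper. All 17 mitosis genes were lower in upper on the deposited scale, with a median ratio of 0.763, and 9 of 17 still were with libraries set to the same epithelial markers. For 16 of them, all but Birc5, the counting interval on the deposited scale lay below 1. The smallest mitosis ratio was that of Foxm1, 0.658 (0.521 to 0.820), and that of Cdc20 was 0.701 (0.620 to 0.792). Replication genes had a median ratio of 0.929, and 11 of 18 intervals held 1. Of 18 replication genes, 12 were lower in upper as deposited and 0 at the same epithelial markers. The median difference of upper from lower was -0.10 for replication and -0.38 for mitosis as deposited, and 0.26 and -0.01 at the same epithelial markers. Summed, mitosis members held 245 FPKM in large, 465 in upper and 599 in lower, and replication members 186 in large, 459 in upper and 481 in lower.

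**Figure D3:**
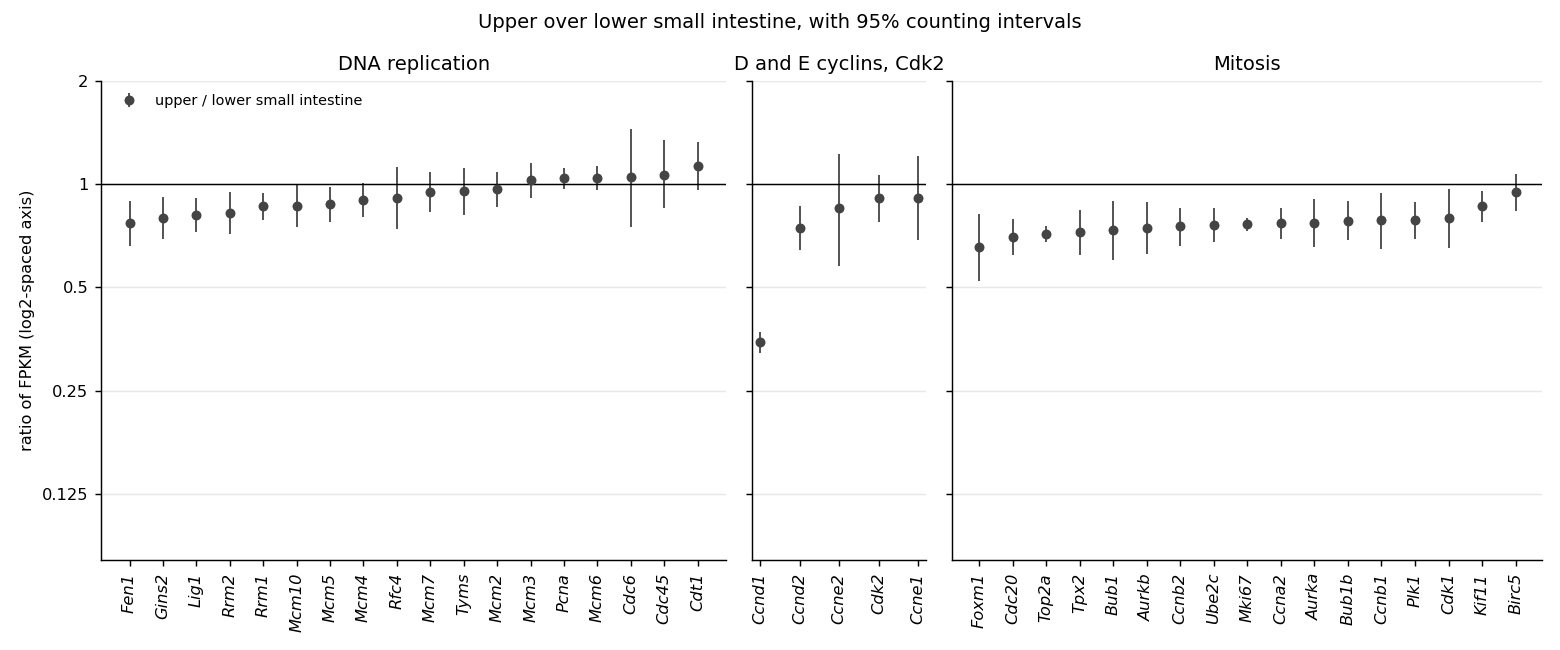
Ratio of FPKM in upper to lower on the deposited scale, on a log2-spaced axis, with bars for 95% counting intervals from implied reads. Mitosis genes lie below 1 (9 of 17 do at the same epithelial markers), replication genes lie around 0.929, and Ccnd1 stands apart at 0.346.

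The D and E cyclins and Cdk2 differed in size but not in order. On the deposited scale all 5 were lowest in large and highest in lower. Ccnd1, cyclin D1, which couples growth signals to the cycle, was at 18.99 FPKM in large, 34.3 in upper and 99.1 in lower. It was the only member called between upper and lower, with a ratio of 0.346 (0.322 to 0.371), and its difference lay between -1.60 and -1.13 over the rescalings. This 1 call in 40 members (2.5%) was near the 2.92% of all measured genes called lower in upper. The Ccnd1 ratio of large to lower was 0.192 (0.175 to 0.209), and that of large to upper 0.554 (0.499 to 0.614), inside the rule of size. Ccnd2 was at 31.5 FPKM in large, 38.7 in upper and 51.8 in lower, called in no comparison, and its difference of large from upper of -0.29 became 0.11 at the same FPKM sum. Ccnd3, not a member and singled out after its values were seen, was at 16.4 FPKM in large, 9.32 in upper and 11.1 in lower.

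Of the summed FPKM of the D cyclins, Ccnd1 made up 28.4% in large, 41.7% in upper and 61.2% in lower. Ccnd2 made up 47.1% in large, 47.0% in upper and 31.97% in lower. Ccnd3 made up 24.5% in large, 11.3% in upper and 6.83% in lower. The leading D cyclin was Ccnd2 in large and upper and Ccnd1 in lower. Of Ccnd1 exonic bases, 23.4% lie opposite LTO1. Of Ccne2 exonic bases, 17.4% lie opposite Ints8, which was at 10.6 FPKM in large, 10.1 in upper and 11.2 in lower. Ccne1, cyclin E1, was at 2.62 FPKM in large, 5.67 in upper and 6.20 in lower. Ccne2, cyclin E2, was at 1.01 FPKM in large, 2.18 in upper and 2.57 in lower. Cdk2, their kinase, was at 11.3 FPKM in large, 15.7 in upper and 17.2 in lower. These were called in no comparison, although their intervals for large against upper and against lower lay below 1. The pseudocount decided this for the E cyclins, since with 0.1 in place of 1 the differences of large from upper were -1.09 for Ccne1 and -1.05 for Ccne2, and those from lower -1.21 and -1.27.

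**Figure D4:**
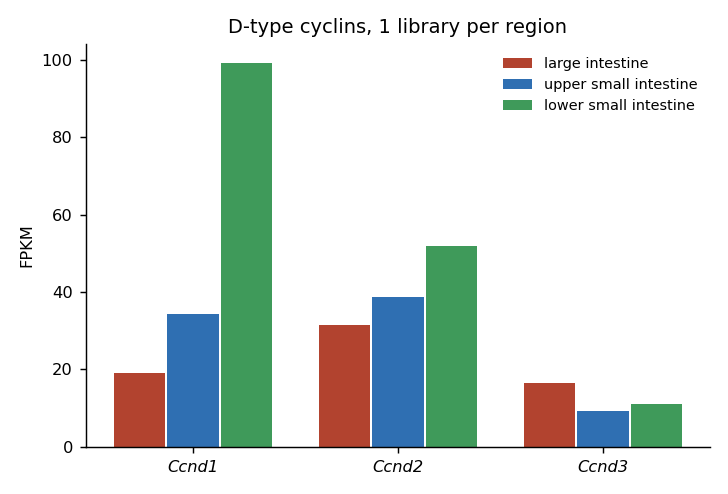
FPKM of Ccnd1, Ccnd2 and Ccnd3 in large, upper and lower, with 1 library per bar. Ccnd1 reaches 99.1 FPKM in lower, whereas Ccnd3 is highest in large at 16.4 FPKM.

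Further replication genes were lower in large at the median, by less than the members. Of 48, 20 (41.7%) were called lower in large against upper and 24 against lower, beside 11.7% and 10.5% of all measured genes, none was called higher, and the medians were -0.89 and -0.99. Asf1b, a histone chaperone, was at 3.37 FPKM in large, 12.8 in upper and 15.1 in lower. Uhrf1, which maintains DNA methylation, was at 7.90 FPKM in large, 24.8 in upper and 29.2 in lower. Both were among the largest differences between large and lower on the list. Against upper 6 of the 48 were above 0 without being called, Rfc1 and the origin recognition genes Orc1, Orc3, Orc4 and Orc5 among them, named after their values were seen. Hells, a chromatin remodeller, was at 5.58 FPKM in large, 19.9 in upper and 19.9 in lower. Rfc1, of the clamp loader, was at 11.6 FPKM in large, 10.9 in upper and 15.5 in lower. Dbf4, which activates the origin-firing kinase Cdc7, was at 6.97 FPKM in large, 11.4 in upper and 16.0 in lower, and neither it nor Rfc1 was called between upper and lower.

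Further mitosis genes were also lower in large at the median. Of 64, 11 (17.2%) were called lower in large against upper and 29 (45.3%) against lower, beside 11.7% and 10.5% of all measured genes, none was called higher, and the medians were -0.67 and -0.97. Trip13, a checkpoint ATPase, was at 1.32 FPKM in large, 5.54 in upper and 8.24 in lower. Cks1b, a partner of cyclin-dependent kinases, was at 7.95 FPKM in large, 18.97 in upper and 28.0 in lower. The condensin gene Ncapg was at 3.09 FPKM in large, 8.59 in upper and 12.02 in lower. These 3 differed most between large and lower. Smc2, also of condensin, was at 4.77 FPKM in large, 14.1 in upper and 16.0 in lower. Kif22, a chromosome-arm motor, was at 6.46 FPKM in large, 17.0 in upper and 18.02 in lower. Between upper and lower the largest differences were those of Ndc80, Cep55 and Fbxo5. Ndc80, of the kinetochore, was at 3.45 FPKM in large, 4.60 in upper and 8.90 in lower. Cep55, of the midbody, was at 5.13 FPKM in large, 7.99 in upper and 14.8 in lower. Fbxo5, an inhibitor of the anaphase-promoting complex, was at 4.16 FPKM in large, 7.06 in upper and 11.4 in lower. Pttg1, securin, singled out after its values were seen, was highest in large like Plk1, at 36.3 FPKM in large, 22.6 in upper and 26.8 in lower.

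**Figure D5:**
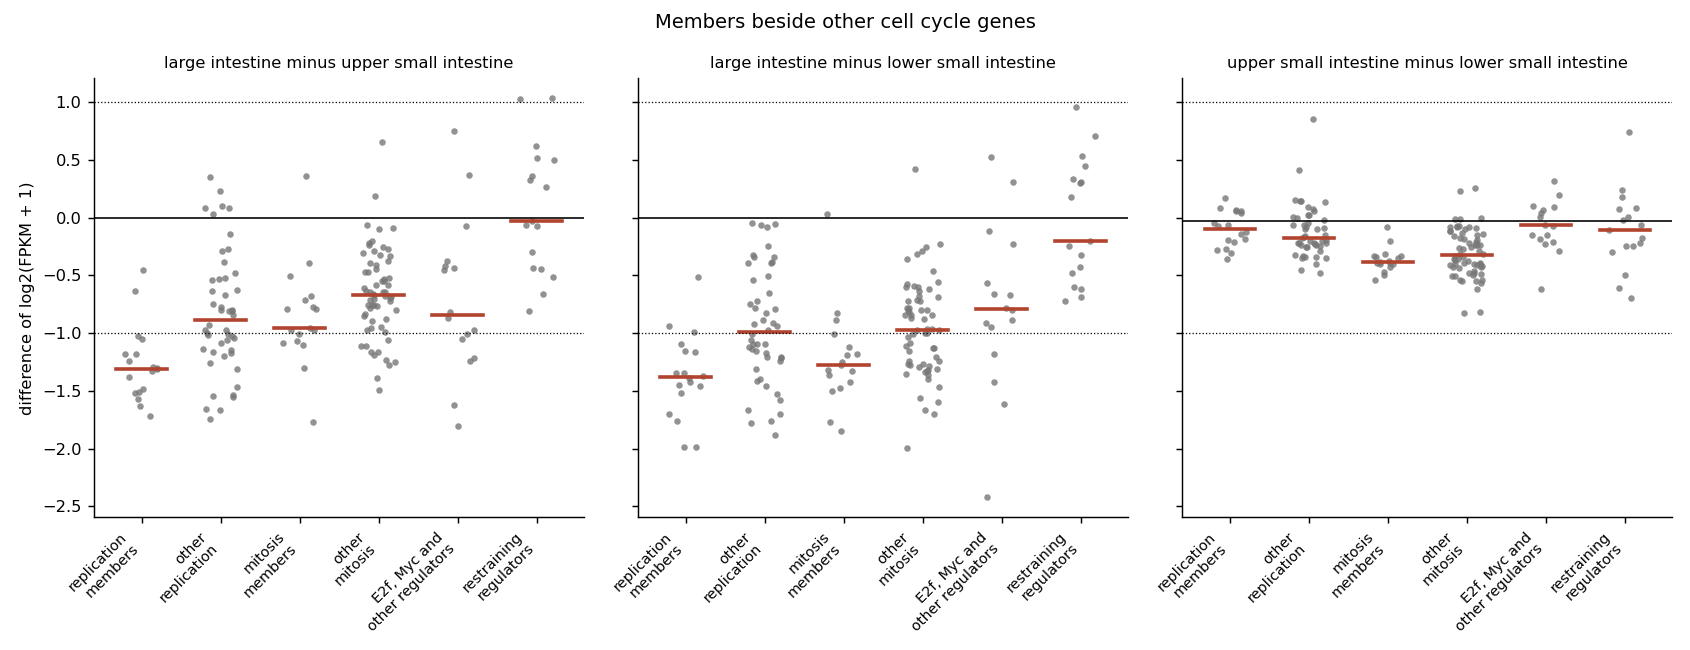
Difference of log2(FPKM + 1) in 3 comparisons for members and for other cell cycle genes, 1 point per gene, with the list median as a bar, the median of all measured genes as a solid line and the rule of size as dotted lines. Replication members have medians of -1.31 (large minus upper) and -1.38 (large minus lower), and restraining regulators -0.03 and -0.20. The list of E2f, Myc and other regulators includes the repressors E2f7 and E2f8.

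Upstream regulators were counted on 2 lists. Of 16 E2F, Myc, cyclin-dependent kinase and related genes, 6 were called lower in large against upper, where 11.7% of all measured genes were, and 4 against lower, where 10.5% were, and none higher. This list includes E2f7 and E2f8, E2Fs that repress, and without them 4 of 14 were called lower against upper and 2 of 14 against lower, a split made after the values were seen. E2f2, an activator E2F, was at 1.97 FPKM in large, 9.38 in upper and 14.9 in lower. E2f8 was at 4.01 FPKM in large, 14.4 in upper and 14.3 in lower. Mybl2, of the complex that switches on mitosis genes, was at 2.09 FPKM in large, 6.28 in upper and 7.29 in lower. These 3 led the list in both comparisons. Between upper and lower, where none was called, Myc was at 15.6 FPKM in large, 20.6 in upper and 25.4 in lower and Mycn at 0.867 FPKM in large, 1.52 in upper and 1.02 in lower. Of 17 measured genes that restrain the cycle, none was called lower and 2 were called higher in large, both against upper, where 11.2% of all measured genes were, a share near that of the list. E2f5, a partner of pocket proteins, was at 19.5 FPKM in large, 9.04 in upper and 13.2 in lower. Btg2, an antiproliferative factor, was at 217 FPKM in large, 106 in upper and 111 in lower. Trp53, the p53 gene, was at 20.4 FPKM in large, 36.6 in upper and 34.4 in lower and was not called. The kinase inhibitor genes were not called either, with Cdkn1a at 112 FPKM in large, 79.1 in upper and 129 in lower. Cdkn1c was at 3.15 FPKM in large, 3.23 in upper and 1.54 in lower. Cdkn2d was at 7.70 FPKM in large, 5.79 in upper and 9.34 in lower.

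Markers of other cells also moved with region. Car1, of the colon, was at 6414 FPKM in large, 0.257 in upper and 0.172 in lower, and Sis, of the small intestine, at 5.93 FPKM in large, 936 in upper and 491 in lower. All 12 T cell genes measured against upper and all 13 against lower were called lower in large. Of all measured genes, 11.7% and 10.5% were. Only 8 of the 13 reached 1 FPKM in large, so the others were measured through the small intestine alone. The list summed to 31.0 FPKM in large, 886 in upper and 905 in lower. Cd3e was at 0.977 FPKM in large, 14.8 in upper and 13.8 in lower. Ptprc was at 1.73 FPKM in large, 12.8 in upper and 15.3 in lower. Between upper and lower the T cell median was 0.01. The part of these cells in the members' differences was not tested. B and plasma cell genes summed to 0.172 FPKM in large, 31.3 in upper and 32.9 in lower, with Cd79b listed at 0 in large. Germinal centre genes, of fast-dividing B cells, summed to 4.34 FPKM in large, 7.60 in upper and 7.82 in lower. Myeloid genes summed to 19.9 FPKM in large, 25.5 in upper and 43.3 in lower, and without Cd14, which was higher in large, to 4.24 FPKM in large, 19.9 in upper and 37.2 in lower. Of 9 measured against lower, 7 were called lower in large and 1 higher, and of 7 against upper, 3 lower and 1 higher. Of all measured genes, 10.5% were called lower and 9.75% higher against lower, and 11.7% and 11.2% against upper. The part of B, plasma and myeloid cells in the members' differences was not tested. Fibroblast genes summed to at most 5.19 FPKM, endothelial to 1.54, muscle to 7.85 and erythroid to 13.6 in any library, and Cdh5, Kdr, Acta2 and Des were listed at 0 in large.

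Crypt genes went in both directions. Of 15 crypt genes, 2 (13.3%) were called lower and 1 higher in large against upper, with a median of 0.03, and the same numbers against lower, with a median of 0.17, beside the 11.7% and 10.5% of all measured genes called lower. Olfm4, a crypt base marker of the small intestine, was called lower in both, at 0.305 FPKM in large, 579 in upper and 396 in lower. Sox9, a crypt transcription factor, was called higher in both, at 26.9 FPKM in large, 9.62 in upper and 11.4 in lower. Axin2, a Wnt target, was called lower against lower, at 11.4 FPKM in large, 20.8 in upper and 25.7 in lower. These 3 were named after their values were seen. Lgr5, the stem cell receptor, was at 3.78 FPKM in large, 3.68 in upper and 5.02 in lower. Ascl2, a stem cell transcription factor, was at 3.11 FPKM in large, 4.38 in upper and 3.11 in lower. Smoc2, another stem cell marker, was at 12.2 FPKM in large, 28.4 in upper and 24.9 in lower, called lower against upper. Epithelial markers, the 10 genes used for rescaling, had medians of 0.43 against upper and 0.02 against lower. Epcam was at 806 FPKM in large, 666 in upper and 879 in lower. Only Vil1 was called lower in large, in both comparisons, at 278 FPKM in large, 974 in upper and 913 in lower. Krt18 and Krt19 were called higher against upper, where 11.2% of all measured genes were, and none against lower. Vil1, Krt18 and Krt19 were named after their values were seen. Rescaling to these markers thus rests partly on genes that differed by region. Of 19 absorptive cell genes, 10 were called lower and 6 higher in large against upper, and 11 lower and 5 higher against lower. Of all measured genes, 11.7% were called lower and 11.2% higher against upper, and 10.5% and 9.75% against lower. That list mixes genes of the small intestine, such as Sis, with genes of the colon, such as Car1, so its counts do not measure the amount of absorptive cells. Paneth genes summed to 32.8 FPKM in large, 17510.2 in upper and 17736 in lower. Goblet genes summed to 9773 FPKM in large, 7641 in upper and 10112 in lower. Enteroendocrine genes summed to 244 FPKM in large, 529 in upper and 209.6 in lower and tuft genes to 4.35 FPKM in large, 5.62 in upper and 4.51 in lower. The part of cell makeup in the members' differences was not tested.

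The scale of the libraries touches every value. Of genes called in either direction as deposited, 49.0% were higher in large against upper, 48.2% in large against lower and 57.3% in upper against lower. At the same FPKM sum these shares were 69.0%, 64.0% and 51.5%, and the all-gene medians moved to 0.37, 0.28 and -0.12. At the same epithelial markers they were 36.9%, 53.6% and 79.2%, with all-gene medians of -0.24, 0.10 and 0.32. Relative to the all-gene median, replication members stood at -1.31 against upper and -1.38 against lower as deposited, and at -1.30 and -1.37 at the same FPKM sum. Mitosis members stood at -0.96 against upper and -1.28 against lower as deposited, and at -0.93 and -1.28 at the same sum.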

How the data were processed

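RNA-seq values of 3 libraries, 1 for each region, were used as deposited. The authors' deposited files give 1 number per gene, taken here as FPKM, although the file headers state no unit. TopHat2 2.0.13, Bowtie2 2.2.3, SAMtools 0.1.19, Cufflinks 2.2.1 and the build mm10 are listed, per the submitters' processing notes, with no roles. The annotation, filters and strand setting are not given in the sources used. Sums were 521651 FPKM in large, 693218 in upper and 646262 in lower, and median ratios to the geometric mean 1.00, 0.999 and 1.01.

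Differences were taken as log2(FPKM + 1), over genes that reached 1 FPKM in either library. The FPKM of 1 read per kb was fitted, in GENCODE M21 genes with transcripts of at least 1500 nt, as 0.1185 in large, 0.137 in upper and 0.092 in lower. Of 333, 348 and 346 low values, 77.2%, 76.4% and 78.9% lay within 0.15 read of a whole number, so no count test was run. Implied reads used the shortest coding transcript, and without molecular identifiers PCR copies count as separate reads. Python 3.11.15, pandas 2.3.3 and SciPy 1.17.1 were used. The rule of size was run on simulated data with counting error only. Those data cannot show how the rule fares with differences between animals or preparations.

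Members and lists were chosen with earlier results of these data known. The rule for named genes took all members, the 3 genes of largest difference in each comparison from each list of other cell cycle genes, and leading cell type markers and markers at 0, of which part are given as list sums. Some genes that the rule took are not reported here. Alternatives were other pseudocounts, filters, scalings and rules of size.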

Additional observations from a re-analysis of the deposited data

How the results depend on the processing

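The pseudocount of 0.1, no filter and a filter of 5 FPKM left the counts of called replication and mitosis genes within 1.5 times their values, and no called member reversed its sign under any of the rescalings. Scale and the rule of size moved counts. Of genes called lower in the large intestine, rescaling to the same FPKM sum left 7 replication genes (16 as deposited) and 1 mitosis gene (6 as deposited) against upper, and 8 mitosis genes (14 as deposited) against lower. At that sum 8.01% of all measured genes were called lower against upper, and 8.01% against lower. Without short RNA genes in the sum, 2 mitosis genes were called against upper, at the same upper quartile 3 and at the same epithelial markers 12. The shares of all measured genes called lower there were 8.76%, 10.5% and 15.4%. A 1.5-fold rule called 14 mitosis genes against upper. A 3-fold rule called 2 replication genes and 1 mitosis gene against upper, and 4 and 2 against lower. The share of all measured genes was not taken for these other rules of size, so their counts have no background beside them. Of the D and E cyclins and Cdk2, a group added to these settings after the data were seen, the count called lower in large against upper (0 as deposited) was 2 at a pseudocount of 0.1, 2 at the same epithelial markers and 3 by a 1.5-fold rule. Against lower (1 as deposited) it was 3 at a pseudocount of 0.1 and 4 by a 1.5-fold rule, and in upper against lower (1 as deposited) it was 0 by a 3-fold rule. At a pseudocount of 0.1, 14% of all measured genes were called lower in large against upper and 13% against lower. Leaving out a replicate could not be run, since each region has 1 library. No paired analysis was possible for the same reason, and the labels give no replicate numbers. Between upper and lower 15 of 40 counting intervals held 1, some narrow and some, such as that of Cdc6 (0.751 to 1.45), wide.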
